A study of Mus musculus with 4 samples.

Results

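The genes described here make, bind, carry, sense or break down retinoic acid, and were chosen by symbol: 9 of the 27998 genes counted. They are the retinaldehyde dehydrogenases Aldh1a1, Aldh1a2 and Aldh1a3, the breakdown enzyme Cyp26b1, the cytoplasmic binding proteins Crabp1 and Crabp2, the plasma retinol carrier Rbp4, its membrane receptor Stra6, and the nuclear receptor Rarb. All 9 were detected in every library. The libraries are droplet-based single-cell RNA sequencing (10x Genomics v2 chemistry) of mouse inner ear organoids, three-dimensional cultures of embryonic stem cells that form otic epithelium with hair cells beside many other tissues. The 4 groups were Tmprss3KO-GFPKI organoids (KO) at day 35, wild-type R1/E organoids (WT) at day 35, KO organoids at day 25 and WT organoids at day 25. The KO line is an R1/E line with Tmprss3, a membrane serine protease gene linked to hearing loss, knocked out and GFP knocked in, and both lines derive from the 129X1x129S1 strain. Each group had 1 library and the number of organoids behind it is not given in the sources used here. No difference below therefore has a test, and the ranges in brackets, exact at the 95% level, speak of counting error and nothing else.

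Retinol travels in blood on RBP4, enters cells through STRA6, and is oxidised to retinaldehyde and then, by the ALDH1A enzymes, to retinoic acid. Retinoic acid crosses into neighbouring cells, is held by the CRABP proteins, and in the nucleus acts through RAR and RXR receptors on target genes, of which Rarb is a classic example, until CYP26 enzymes clear it. In the developing ear, as in limb, brain and face, tissues that make retinoic acid lie beside tissues that break it down, and such boundaries pattern the otic vesicle.

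After a filter of at least 500 genes and at most 10% mitochondrially encoded UMIs per barcode, 6729 cells of KO day 35, 8166 of WT day 35, 11190 of KO day 25 and 9768 of WT day 25 remained. They held 38307020, 30887121, 84439223 and 73025302 unique molecular identifiers (UMIs, tags that each stand for 1 captured RNA), with medians of 4420, 3089, 6371 and 6167 per cell. The WT day 35 library stood apart. A stricter filter of 1000 genes and 5% mitochondrially encoded UMIs left 3215 of its cells, against 4844 of KO day 35, 10625 of KO day 25 and 8805 of WT day 25. KO day 35 alone held a sizeable pluripotent-like class, 258 cells, against 1 in KO day 25, 7 in WT day 25 and none in WT day 35. Pairs of libraries shared 76 to 142 barcodes, at most 1.58% of the smaller one. Tmprss3 itself had 5, 8, 7 and 18 UMIs, too few to check the labels. A cell was put in a class, such as fibroblast-like, when at least 3 of that class's marker genes had a UMI in it. By this gate 46.3%, 39.9%, 56.9% and 55.7% of cells fell in 1 class, 39.6%, 54.1%, 29.4% and 29.7% in none, and 14.1%, 5.96%, 13.7% and 14.6% in several. Most cells with several gates at day 35 carried otic supporting and otoconial markers together, or fibroblast and leptomeningeal markers together.

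The stretch upstream of Rarb is shown because it carries the best-known retinoic acid response element, a direct repeat of a receptor-binding hexamer with 5 bases between the copies, and that of Cyp26a1, another breakdown enzyme, because it was the only other retinoid pathway gene searched with that repeat. Each is the 250 bases before a gene start listed by RefSeq in GRCm38.p6, read 5′ to 3′ on the gene's strand. The repeat is in capitals. The Rarb stretch is chr14:16575477-16575726 on the minus strand and the Cyp26a1 stretch is chr19:37697558-37697807 on the plus strand. The Rarb stretch lies before an inner start, inside the span annotated for the gene, chr14:16430839-16819156.

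Rarb: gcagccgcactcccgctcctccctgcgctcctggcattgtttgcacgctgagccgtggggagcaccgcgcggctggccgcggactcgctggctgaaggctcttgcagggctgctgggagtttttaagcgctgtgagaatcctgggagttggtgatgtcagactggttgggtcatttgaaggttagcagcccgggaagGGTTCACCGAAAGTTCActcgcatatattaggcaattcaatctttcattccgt

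Cyp26a1: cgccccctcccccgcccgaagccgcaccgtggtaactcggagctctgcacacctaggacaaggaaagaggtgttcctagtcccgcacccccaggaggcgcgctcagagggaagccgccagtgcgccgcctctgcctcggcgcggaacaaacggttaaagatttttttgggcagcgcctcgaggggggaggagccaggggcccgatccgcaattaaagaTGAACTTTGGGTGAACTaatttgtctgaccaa

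The hexamer AGGTCA was searched, and so were its forms AGTTCA and, further, GGGTCA and also GGTTCA, on both strands. RefSeq windows ran from 250 bases before to 50 after each listed start, and a gene could have more than 1. Windows were matched by symbol for 7 of the 9 genes, not for Aldh1a3 and Crabp2, and for 32 of 45 other pathway genes. The repeat with NNNNN between 2 hexamers was in 32 of 32851 windows, 0.0974%, and Rarb was the only 1 of the 7 to hold it. It began 53 bases before the inner Rarb start and, on the opposite strand, 32 bases before the Cyp26a1 start. Repeats with N or NN between the hexamers were in 0.222% and 0.268% of windows, and in none of the 7. A single hexamer was in 43.7% of windows, including those of Aldh1a1, Rarb, Rbp4 and Stra6.

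Levels are CPM, the gene's UMIs divided by all UMIs of the cells summed and scaled to a total of 1000000. Because 3′ counting gives about 1 tag per molecule whatever the transcript length, and tagging efficiency differs by gene, levels are compared between samples and cells but not between genes. In sums over a library, fewer cells of a type and less RNA per cell cannot be told apart.

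The synthesis enzymes Aldh1a1 and Aldh1a3 stood higher in the later libraries of either genotype, and the 3 enzymes divided among tissues. Aldh1a1 had 36.9 CPM in KO day 35, 26.7 in WT day 35, 4.24 in KO day 25 and 9.09 in WT day 25. Aldh1a3 had 37.4, 43.1, 9.42 and 15.6 CPM in the same order. The day 35 values of both genes lay above both day 25 values. For this order, and for like ones given below for other genes, the share of all genes was not counted. Aldh1a2 had 29.0, 32.9, 17.1 and 17.7 CPM, again higher in both day 35 libraries, but by less than 2-fold.

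**Figure D1:**
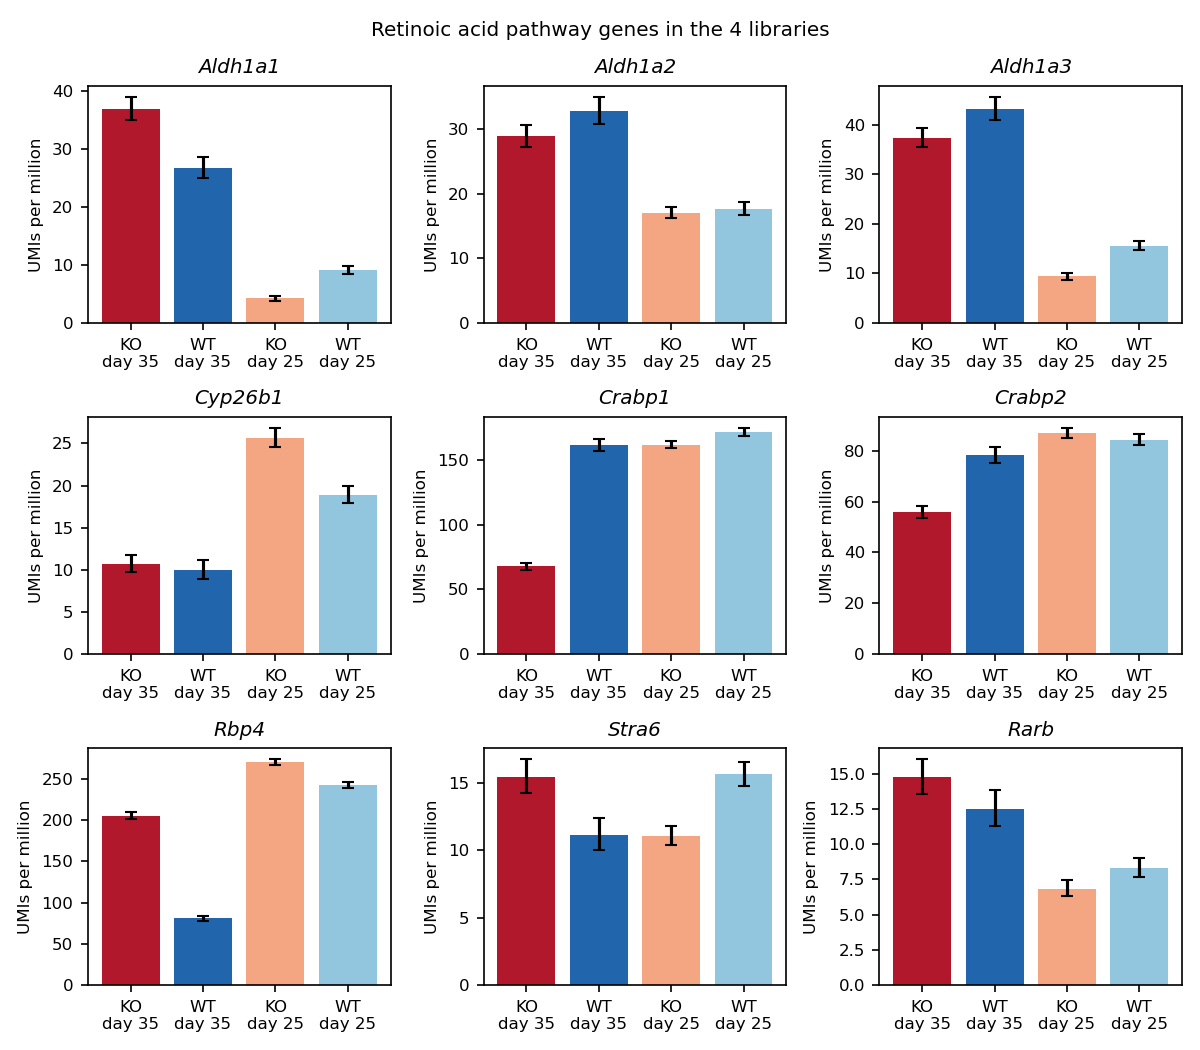
CPM of each gene in the 4 libraries, KO day 35, WT day 35, KO day 25 and WT day 25 from left to right, on axes that start at 0 and differ in scale between genes. Bars are 1 library each and whiskers exact 95% Poisson intervals. Aldh1a1 and Aldh1a3 stand higher in both day 35 libraries, Cyp26b1 lower, and Crabp1 lower in KO day 35 alone.

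Aldh1a3, the retinaldehyde dehydrogenase of otic and nasal epithelium in the mouse embryo, was highest, among gated classes, in otic ones. In otic supporting-like cells it had 103 CPM in KO day 35 (481 cells), 174 in WT day 35 (358 cells), 125 in KO day 25 (45 cells) and 72.5 in WT day 25 (37 cells). In otoconial otic-like cells it had 163, 346, 236 and 127 CPM, from 33, 24, 9 and 6 cells. A joint otic epithelial-like class, of cells with either or both otic gates and no other, formed after the data were seen, held 44.1%, 47.9%, 16.1% and 5.35% of all Aldh1a3 UMIs in 11.2%, 5.84%, 0.617% and 0.624% of the cells. In it 42.1%, 48.2%, 56.5% and 45.9% of cells had an Aldh1a3 UMI, with median depths of 5283, 4162, 6602 and 6504 UMIs. After thinning each cell to 2000 UMIs the shares were 20.1%, 29.6%, 26.1% and 24.6%. In skeletal muscle-like cells, which were deeper in every library and serve here as a comparison class, the share was 1.07%, 1.72%, 1.09% and 1.12%. How much of that share was RNA free in the droplets was not tested.

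Aldh1a1 was also found in otic classes, and in others beside them. Otoconial otic-like cells of KO day 35 had 10.2 CPM from 2 UMIs, below the fibroblast-like cells of that library. The joint otic class had 86.9 CPM in KO day 35, 68.3 in WT day 35, 93.7 in KO day 25 and 37.4 in WT day 25. Hair cell-like cells had 132, 120, 11.4 and 91.0 CPM, from 29, 64, 12 and 30 cells, with a single UMI behind the KO day 25 value and 16 of the 28 UMIs of WT day 25 in 1 cell. Fibroblast-like cells had 27.6, 14.4, 2.23 and 3.31 CPM, higher at day 35 in both genotypes, and astrocyte-like cells 90.9 CPM in KO day 35 against 9.44 in KO day 25 and 5.28 in WT day 25. WT day 35 held only 6 astrocyte-like cells and no Aldh1a1 UMI in them. Whether cells with Aldh1a1 more often had Aldh1a3 varied by class. In the joint otic class of KO day 35, 38.8% of cells with Aldh1a1 also had Aldh1a3, against 43.5% of cells without it, and in WT day 35 the shares were 52.8% and 46.9%. Among hair cell-like cells they were 57.1% and 27.3% in KO day 35 and 33.3% and 11.5% in WT day 35, each from 4 cells with both. In fibroblast-like cells the share was higher beside Aldh1a1 in all 4 libraries, from 7, 7, 3 and 5 cells with both. For example, the shares were 4.90% and 3.06% in KO day 35 and 10.9% and 2.57% in WT day 25. The part of depth in these shares was not tested.

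Many Aldh1a1 and Aldh1a3 UMIs lay in cells that passed no gate. Ungated cells with at least 3 Aldh1a1 UMIs were led by Cldn10, Npy, Spink8 and Napsa in KO day 35 and by Gm6619, Lect1 and 5430401F13Rik in WT day 25. Ungated cells with a UMI of at least 2 of Cldn10, Napsa and Lect1, a pool chosen after those genes were seen, numbered 138, 382, 29 and 116. Their Aldh1a1 level was 267, 128, 103 and 208 CPM and their Aldh1a3 level 287, 72.1, 87.8 and 277 CPM. The pool thus held 29.1% of all Aldh1a1 UMIs in WT day 25 but 5.6% in KO day 25, where it was 29 cells. No cell type name is given to it.

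**Figure D2:**
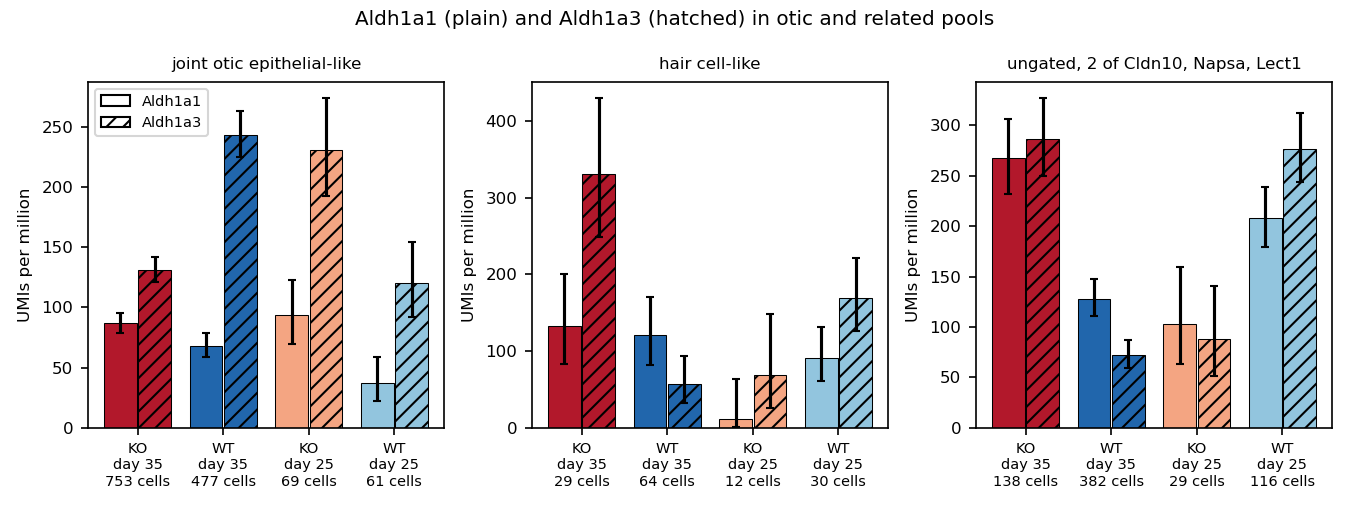
Aldh1a1 (plain bars) and Aldh1a3 (hatched bars) in CPM in the joint otic epithelial-like class, in hair cell-like cells and in the ungated pool with at least 2 of Cldn10, Napsa and Lect1, for KO day 35, WT day 35, KO day 25 and WT day 25. Whiskers are exact 95% Poisson intervals over summed UMIs, and the number of cells stands under each pair of bars. In the ungated pool Aldh1a3 is high in KO day 35 and WT day 25, at 287 and 277, while in the joint otic class it is high in WT day 35 and KO day 25, at 243 and 231, with 41 of the 128 UMIs of KO day 25 in 1 cell.

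Aldh1a2, the main retinoic acid source of embryonic mesoderm and of the meninges, followed another tissue. Leptomeninges-like cells had 237 CPM in KO day 35, 193 in WT day 35, 193 in KO day 25 and 171 in WT day 25, and the intervals of all 4 overlapped (187 to 297, 154 to 238, 153 to 240, and 136 to 212). A UMI was found in 59.2%, 44.3%, 49.3% and 55.1% of these cells, against 1.60%, 1.38%, 1.45% and 1.26% of skeletal muscle-like cells. Fibroblast-like cells had 54.0 and 56.5 CPM in KO and WT at day 35, against 20.5 and 21.8 CPM in KO and WT at day 25. Joint otic cells had 2.29, 2.29, 0 and 1.97 CPM, about the 2.29, 2.78, 1.86 and 1.73 CPM of skeletal muscle-like cells. Within the leptomeninges-like class the level thus did not separate by day beyond counting error, while in the fibroblast-like class it did. Cells with both fibroblast and leptomeningeal markers were counted in neither class, and cells with several gates held 19.7% of Aldh1a2 UMIs in WT day 35 and more in the other 3 libraries, up to 46.9% in WT day 25.

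**Figure D3:**
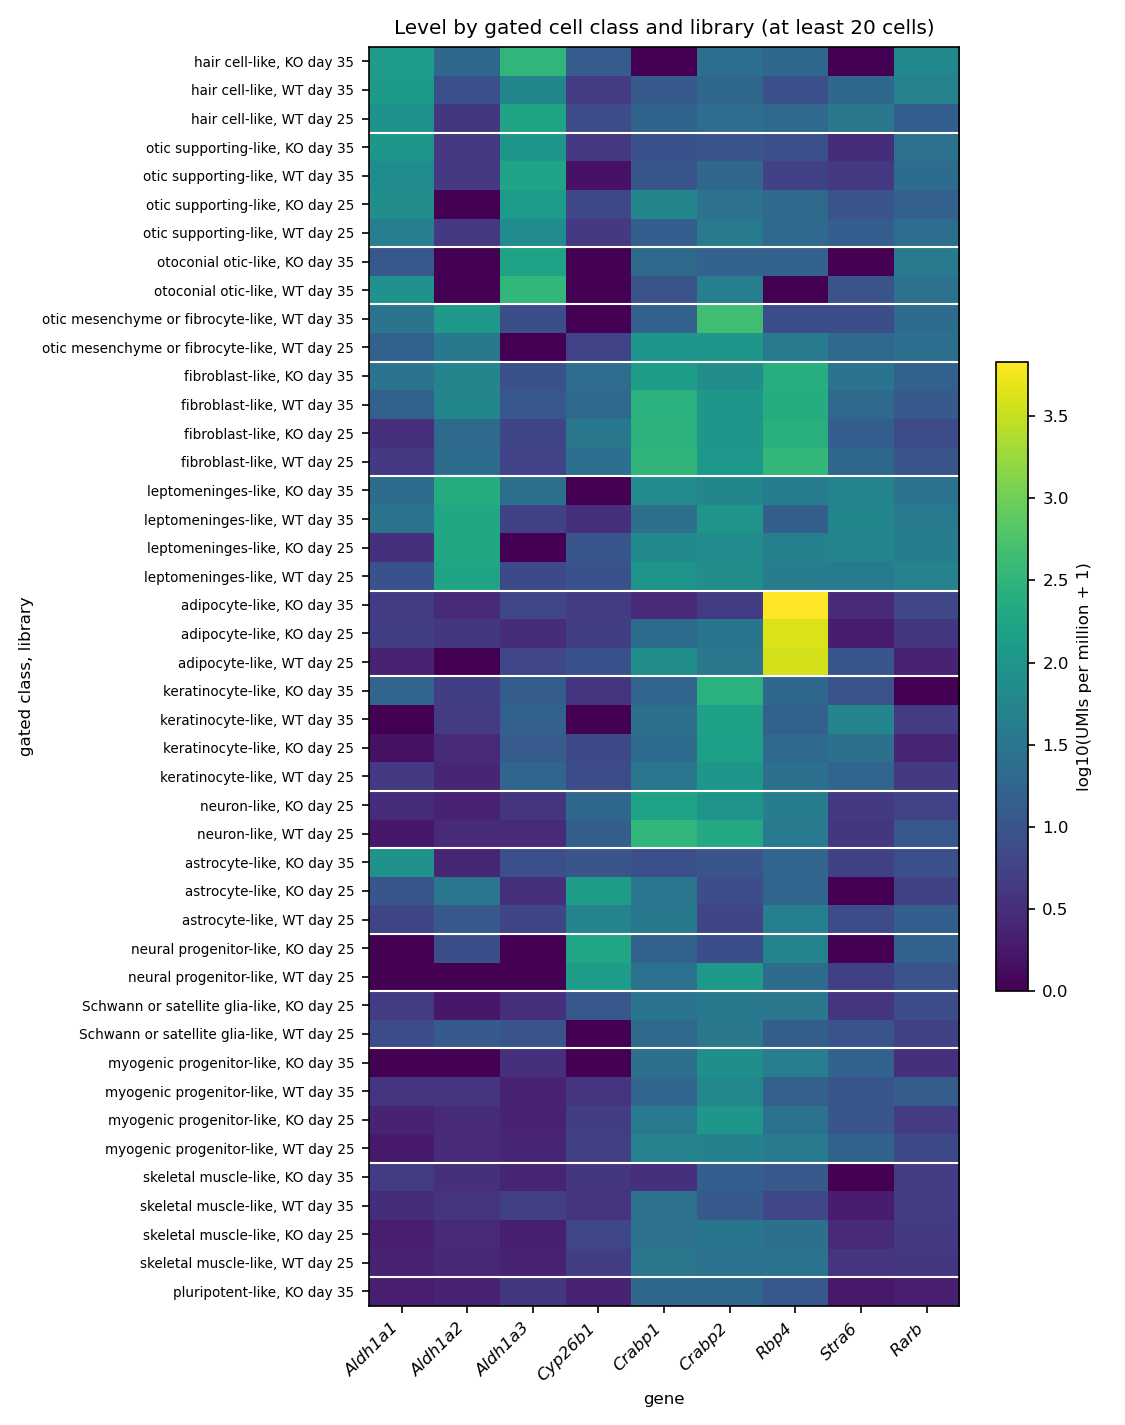
Level of each gene as log10 of CPM plus 1, by gated class and library, for classes with at least 20 cells in that library, in the order KO day 35, WT day 35, KO day 25, WT day 25 within each class. Aldh1a1 and Aldh1a3 are bright in the otic rows, Aldh1a2 in the leptomeninges-like rows, Rbp4 in the adipocyte-like rows, Crabp1 in fibroblast-like and neuron-like rows, and Cyp26b1 in neural progenitor-like and day 25 astrocyte-like rows.

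Cyp26b1, which hydroxylates retinoic acid and so shields tissue from it, ran against the synthesis enzymes over time. It had 10.7 CPM in KO day 35, 9.94 in WT day 35, 25.7 in KO day 25 and 18.9 in WT day 25, so both day 35 values lay below both day 25 values. Its highest levels were in neural classes of day 25. Neural progenitor-like cells had 184 CPM in KO and 132 in WT, from 20 and 29 cells, and astrocyte-like cells 137 CPM in KO and 51.5 in WT, from 56 and 102 cells. Of these astrocyte-like cells 39.3% in KO and 16.7% in WT had a UMI, and 17.9% and 10.8% after thinning to 2000 UMIs. Astrocyte-like cells of KO day 35 had 9.24 CPM, so Aldh1a1 was high and Cyp26b1 low in the astrocyte-like class of KO day 35, and the reverse held in that of KO day 25. Most Cyp26b1 UMIs lay elsewhere. Ungated cells held 40.5%, 47.9%, 40.0% and 42.1% of them, at 14.0, 10.3, 45.6 and 35.1 CPM. Fibroblast-like cells held 40.0%, 41.7%, 38.8% and 30.2%, at 22.5, 20.4, 33.0 and 23.8 CPM. Joint otic cells had 4.99, 1.91, 10.8 and 7.87 CPM from 24, 5, 6 and 4 UMIs. Skeletal muscle-like cells had 3.05, 2.78, 5.58 and 3.89 CPM, less except in WT day 35, with overlapping intervals in each library.

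Crabp1, a cytoplasmic retinoic acid binder typical of neural crest mesenchyme and early neurons, had 67.6 CPM in KO day 35, 161 in WT day 35, 162 in KO day 25 and 171 in WT day 25, so KO day 35 alone was low. Fibroblast-like cells had 141 CPM in KO day 35, against 276, 294 and 318 CPM, and ungated cells 107 CPM, against 208, 193 and 236 CPM. Fibroblast-like and ungated cells together held most Crabp1 UMIs in every library. Ungated cells with at least 3 Crabp1 UMIs were led by Grem1, Pgf and Nrn1 in WT day 35 and by Cyp26b1, Twist2 and Pgf in KO day 25. Neuron-like cells of day 25 had 164 CPM in KO and 337 in WT, from 243 and 503 cells. Otic cells had little of it, 6.86, 9.16, 39.6 and 15.7 CPM in the joint otic class, while skeletal muscle-like cells had 2.29, 26.3, 27.0 and 32.0 CPM.

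Crabp2, which delivers retinoic acid to nuclear receptors, had 56.0 CPM in KO day 35, 78.2 in WT day 35, 86.8 in KO day 25 and 84.4 in WT day 25. Keratinocyte-like cells had 277, 157, 145 and 106 CPM, higher in KO on each day. Otic mesenchyme or fibrocyte-like cells had 453 CPM in WT day 35 (41 cells, with 22 of the 62 UMIs in 1 of them) and 102 in WT day 25 (37 cells). Myogenic progenitor-like cells had 81.0, 60.7, 104 and 47.0 CPM, with 39.5% of cells bearing a UMI in KO day 25 against 18.8% in WT day 25. Neuron-like cells of day 25 had 96.3 CPM in KO and 201 in WT, the same order as Crabp1 in those cells. In fibroblast-like cells of KO day 35, 27.1% of cells with Crabp1 also had Crabp2, against 17.6% of cells without it, and in WT day 35 the shares were 26.6% and 17.4%. Cells differ in depth, and the part of depth in this link was not tested.

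Rbp4, secreted mainly by liver and fat, had 206 CPM in KO day 35, 80.9 in WT day 35, 271 in KO day 25 and 243 in WT day 25, so WT day 35 alone was low. The gene was concentrated in adipocyte-like cells, at 6792 CPM in KO day 35, 4884 in WT day 35, 4252 in KO day 25 and 3827 in WT day 25. These were 75, 9, 69 and 70 cells, and they held 46.8%, 8.7%, 17.9% and 15.8% of the library's Rbp4 UMIs. One KO day 25 cell alone had 632 of its 22849 UMIs. Fibroblast-like cells had 245, 233, 270 and 343 CPM, so here WT day 35 was not set apart. Skeletal muscle-like cells had 10.7, 5.56, 24.9 and 27.8 CPM, with a UMI in 5.88%, 2.24%, 15.7% and 20.6% of cells. Rbp4 levels in other classes that lie near these are not read as marks of a class. Whether such levels came from free RNA was not tested. In KO day 25, 1 skeletal muscle-like cell had 19 of the 187 UMIs of that class. Some classes stood above the skeletal muscle-like levels, such as 42.7 CPM in myogenic progenitor-like and 40.6 in leptomeninges-like cells of KO day 35. Ungated cells had 91.8, 37.3, 84.7 and 105 CPM.

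**Figure D4:**
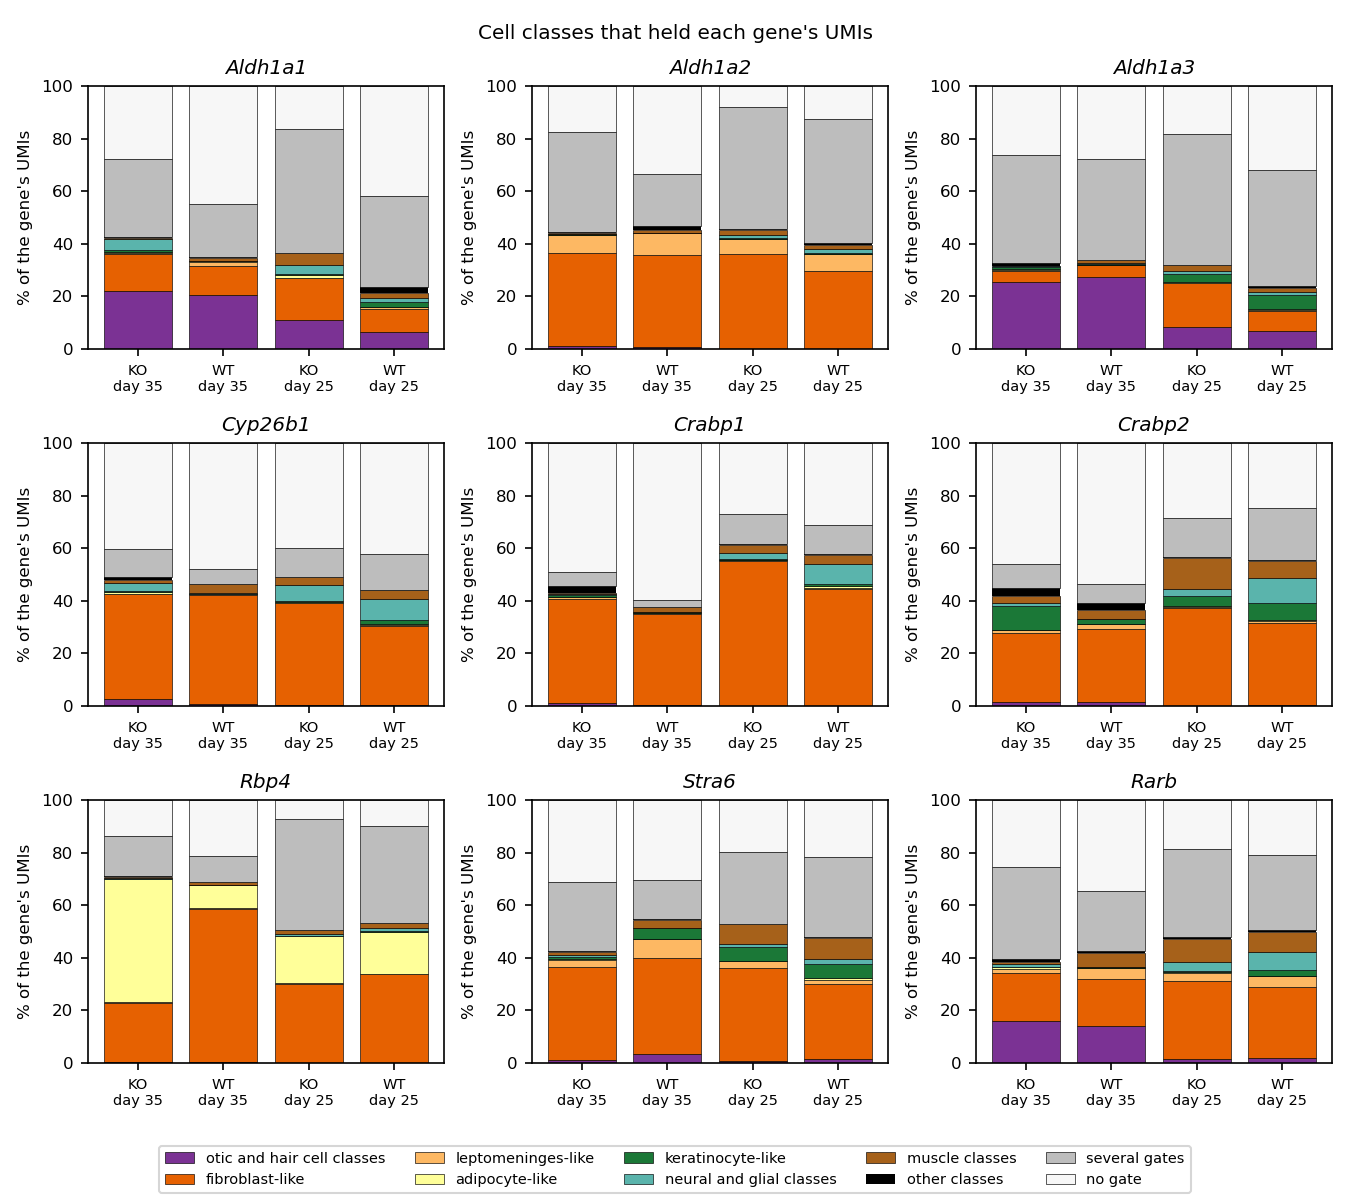
Share of each gene's UMIs in each library, in percent, by the class of the cell that held them, with cells of several gates in mid grey and cells of no gate in near white, for KO day 35, WT day 35, KO day 25 and WT day 25. The otic group is supporting-like, otoconial-like and hair cell-like cells together. It takes a larger share of Aldh1a1, Aldh1a3 and Rarb at day 35 than at day 25, and adipocyte-like cells take 46.8% of Rbp4 in KO day 35.

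Stra6, the RBP4 receptor, had 15.5 CPM in KO day 35, 11.1 in WT day 35, 11.1 in KO day 25 and 15.6 in WT day 25. Leptomeninges-like cells had 53.1, 56.1, 53.0 and 37.0 CPM, from 17 to 25 UMIs each, with overlapping intervals. Fibroblast-like cells had 28.7 CPM in KO day 35 and 13.0 in KO day 25, with both WT libraries between them, and keratinocyte-like cells 8.43, 53.6, 25.3 and 16.8 CPM. Skeletal muscle-like cells had at most 2.88 CPM.

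Rarb had 14.7 CPM in KO day 35, 12.5 in WT day 35, 6.85 in KO day 25 and 8.31 in WT day 25, so both day 35 values lay above both day 25 values. Its highest levels were in otic and leptomeningeal classes, where a synthesis enzyme was also high. The ungated pool with at least 2 of Cldn10, Napsa and Lect1 had 0, 4.01, 5.17 and 1.08 CPM of Rarb. Its genes were taken from ungated cells with Aldh1a1 UMIs, so a high Aldh1a1 level in it was favoured by the choice. A link between Rarb and synthesis enzyme levels was not tested. Hair cell-like cells had 60.1, 48.9, 34.1 and 13.0 CPM, from 10, 13, 3 and 4 UMIs. The joint otic class had 32.0, 26.3, 18.0 and 17.7 CPM, and leptomeninges-like cells 28.1, 38.1, 40.9 and 49.4 CPM, against 3.82, 3.71, 3.46 and 3.02 CPM in skeletal muscle-like cells. Among joint otic cells of KO day 35, 21.5% of cells with Aldh1a3 also had Rarb, against 14.2% of cells without it, and in WT day 35 the shares were 19.1% and 5.26%. At day 35 hair cell-like cells had the other order, 10.0% and 36.8% in KO day 35 and 10.0% and 16.7% in WT day 35, each from 1 cell with both. At day 25 the Rarb share was instead higher among hair cell-like cells with Aldh1a3 than among those without it. This held in KO and in WT, from 1 and 2 cells with both. The part of depth was not tested here either.

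Across 35 class by library pools of at least 50 cells from 13 classes, the closest pair of members was Aldh1a1 and Aldh1a3 (Pearson r of log2(CPM + 10) of 0.75), followed by Aldh1a2 with Rarb and Aldh1a2 with Stra6 (0.70 each). These points share libraries and depth and are a description. The genes with the most similar patterns were Pdgfd, Tlr3 and A330041J22Rik for Aldh1a1 (r of 0.91 to 0.86), Lama1, Bmp5 and Itih2 for Aldh1a2 (0.95 to 0.94), and Prom2, Fam101b and Lpar3 for Aldh1a3 (0.94 to 0.92). They were Entpd1, Gucy1a3 and Galnt16 for Cyp26b1 (0.86 to 0.84), Runx1t1, Penk and Tspan11 for Crabp1 (0.83 to 0.79), and Abracl, Sertad4 and Sdc1 for Crabp2 (0.78 to 0.74). For Rbp4 they were Aoc3, 6030408B16Rik and Lpl (0.96 to 0.95), for Stra6 Htra1, Tgfbi and Isg15 (0.88 to 0.83), and for Rarb Abhd14b, Cemip and Sp5 (0.84 each).

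Set against WT organoids at day 25, KO organoids had less Aldh1a1. Of the 9 genes 1 lay past 2-fold, Aldh1a1 with a log2 ratio of -1.10 (-1.29 to -0.91), against 7.72% of 16984 genes with at least 20 UMIs. Aldh1a3 was at -0.73 (-0.86 to -0.60), Stra6 at -0.50 and Cyp26b1 at 0.44, and the other 5 lay between -0.28 and 0.15. The median over the 9 was -0.08 and over all genes -0.04. Within classes of at least 50 cells, 9 of 50 pairs of a gene and a class lay past 2-fold, against 6.13% of such pairs over all genes, 4.14% to 10.3% by class. The lower ones were Crabp1 (-1.04, -1.25 to -0.83) and Crabp2 (-1.06, -1.34 to -0.79) in neuron-like cells, Rarb in neuron-like cells (-1.12, -2.56 to 0.11, from 7 KO and 28 WT UMIs), Crabp1 in adipocyte-like cells (-1.83) and Rbp4 in astrocyte-like cells (-1.40). The higher ones were Crabp2 in myogenic progenitor-like cells (1.15, 0.92 to 1.38), Cyp26b1 (1.41, 0.80 to 2.03) and Aldh1a2 (1.54, 0.16 to 3.01, with 11 of its 13 KO UMIs in 1 cell) in astrocyte-like cells, and Rbp4 in Schwann or satellite glia-like cells (1.24, from 41 KO and 6 WT UMIs). The Crabp1 value in neuron-like cells was -0.42 with a gate of 2 markers. Rbp4 had 16.5 CPM in KO and 43.6 in WT astrocyte-like cells, and 31.6 and 13.4 in Schwann or satellite glia-like cells. Skeletal muscle-like cells, the comparison class, had 24.9 and 27.8 CPM of Rbp4.

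At day 25 the order within the joint otic class was the other way round from the whole library. Aldh1a1 was higher in KO by 1.33 (0.54 to 2.17) and Aldh1a3 by 0.94 (0.49 to 1.41), from 69 KO and 61 WT cells, but 41 of the 128 Aldh1a3 UMIs of KO lay in 1 cell. After thinning, 26.1% of KO and 24.6% of WT cells had an Aldh1a3 UMI. These values rest on the gate, since with 2 markers (24 and 37 cells) the values were -0.65 and -0.57, and with 4 markers Aldh1a1 was at -0.59. In the ungated pool with Cldn10, Napsa or Lect1 both genes were lower in KO, by log2 ratios of -1.01 and -1.66, from 29 KO and 116 WT cells.

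At day 35, KO organoids had more Rbp4 and less Crabp1 than WT organoids. Rbp4 stood at 1.35 (1.28 to 1.41) and Crabp1 at -1.26 (-1.33 to -1.19), 2 of 9 genes past 2-fold, against 13.3% of 15843 genes. The other 7 lay between -0.48 for Crabp2 and 0.47 for Aldh1a1 and Stra6. The median over the 9 was 0.11 and over all genes 0.23, so the 0.24 of Rarb was that of the median gene. Aldh1a2 at -0.18 and Aldh1a3 at -0.21 turned to 0.49 and 0.34 under the stricter filter, which took Aldh1a1 past 2-fold, to 1.02, and left Rbp4 under it, at 0.91. Without cells that passed the adipocyte gate Rbp4 was at 0.30, and in fibroblast-like cells at 0.07 (-0.03 to 0.17). Crabp1 was at -0.97 (-1.08 to -0.85) in fibroblast-like cells, where Crabp2 was at -0.46, and at -1.10 without the pluripotent-gate cells. Within classes 4 of 29 pairs lay past 2-fold, against 8.02% of such pairs over all genes, 6.37% to 14.4% by class. The lower ones were Crabp1 in skeletal muscle-like cells (-3.52, from 3 KO and 85 WT UMIs) and Stra6 in keratinocyte-like cells (-2.67, from 6 KO and 15 WT UMIs). The higher ones were Crabp1 in leptomeninges-like cells (1.48, from 22 KO UMIs, 8 of them in 1 cell, and 11 WT UMIs) and Rbp4 in myogenic progenitor-like cells (1.63). The Crabp1 pair in skeletal muscle-like cells lies in the class used here for comparison. In the joint otic class Aldh1a3 was lower in KO by a log2 ratio of -0.89 (-1.05 to -0.73) and Aldh1a1 stood at 0.35 (0.09 to 0.61). In the ungated pool with at least 2 of Cldn10, Napsa and Lect1 both were higher in KO. There Aldh1a3 was at 1.99 (1.65 to 2.34) and Aldh1a1 at 1.06 (0.77 to 1.35). In hair cell-like cells Aldh1a3 had 330 CPM in KO and 56.4 in WT, but 25 of the 55 KO UMIs lay in 1 cell. Under the stricter filter Aldh1a3 in the joint otic class was at -0.22, from 272 KO and 75 WT cells.

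**Figure D5:**
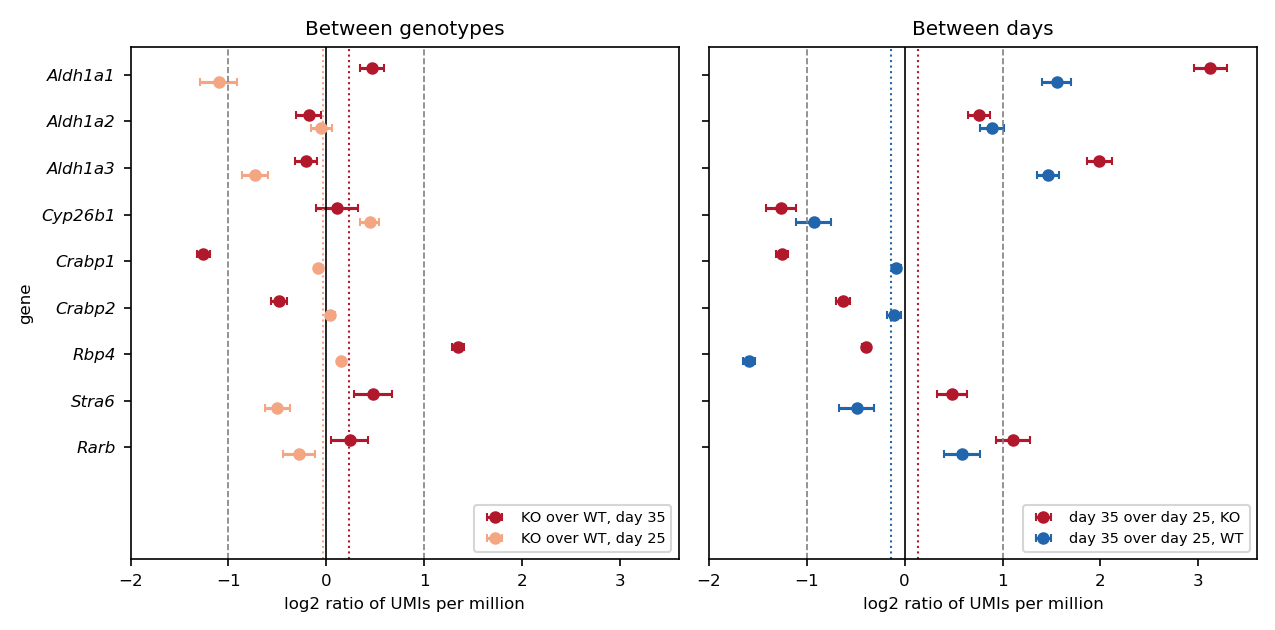
Log2 ratios of CPM over whole libraries, with exact 95% intervals for counting error. The left panel sets KO over WT at day 35 and day 25, the right panel day 35 over day 25 in KO and WT. Dashed lines mark 2-fold and dotted lines the median of all genes in each comparison. Crabp1 and Rbp4 part at day 35, and Aldh1a1 and Aldh1a3 lie right of 0 in both genotypes over time.

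Between the days, Aldh1a1 and Aldh1a3 were past 2-fold higher at day 35 in KO and in WT organoids. In KO organoids 5 of 9 genes lay past 2-fold, against 21.3% of 16830 genes: Aldh1a1 at 3.12 (2.95 to 3.29), Aldh1a3 at 1.99 (1.86 to 2.12) and Rarb at 1.11 (0.94 to 1.28) were higher at day 35, and Cyp26b1 at -1.26 (-1.42 to -1.11) and Crabp1 at -1.26 (-1.32 to -1.20) lower. In WT organoids 3 of 9 did, against 22.7% of 16397 genes: Aldh1a1 at 1.55 (1.41 to 1.70) and Aldh1a3 at 1.46 (1.35 to 1.58) were higher at day 35 and Rbp4 at -1.59 (-1.65 to -1.53) lower. Cyp26b1 in WT was at -0.93, Aldh1a2 at 0.76 in KO and 0.89 in WT, and the median of all genes at 0.14 in KO and -0.14 in WT. The WT values of Aldh1a1, Aldh1a3 and Rbp4 changed with the filter on genes and mitochondrial UMIs. A stricter filter removes shallow cells but can also change the mix of classes, and the part of each was not tested. Under the stricter filter Aldh1a1 in WT was at 0.33, Aldh1a3 at 0.46 and Rbp4 at -0.69, so none of the 9 was past 2-fold, while in KO Aldh1a1 was at 2.44, Aldh1a3 and Cyp26b1 stayed past 2-fold, and Rarb at 0.84 and Crabp1 at -0.99 did not. The joint otic class was also a larger share of the cells at day 35, as given above, and its part in the whole-library values was not tested. In the joint otic class Aldh1a1 was at -0.11 (-0.53 to 0.34) in KO and 0.87 (0.18 to 1.64) in WT, and Aldh1a3 at -0.81 (-1.09 to -0.53) in KO and 1.02 (0.64 to 1.42) in WT.

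Within classes, 13 of 35 pairs in KO lay past 2-fold over time, against 15.6% of such pairs over all genes, and 13 of 34 in WT, against 19.1%. Of these, 3 in KO and 4 in WT lay in skeletal muscle-like cells, which serve as the comparison class. In fibroblast-like cells Aldh1a1 and Aldh1a2 were past 2-fold in both genotypes. Aldh1a1 was at 3.63 (3.20 to 4.08) in KO and 2.12 (1.63 to 2.62) in WT, and Aldh1a2 at 1.40 (1.21 to 1.59) in KO and 1.38 (1.16 to 1.59) in WT, although 0.52 in WT under the stricter filter. Crabp1 in these cells was at -1.06 in KO and -0.20 in WT, Stra6 at 1.14 and 0.10, and Rarb at 1.09 and 0.21. In astrocyte-like cells of KO, Aldh1a1 was at 3.27 (1.83 to 5.19) and Cyp26b1 at -3.89 (-5.39 to -2.68).

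Among 45 other genes of the pathway, none was past 2-fold between genotypes in the same direction on both days. Over time Rdh10, which makes retinaldehyde from retinol, was higher at day 35 in both genotypes, with 44.7 CPM in KO day 35, 62.1 in WT day 35, 19.2 in KO day 25 and 27.5 in WT day 25, or log2 ratios of 1.22 in KO and 1.18 in WT. The order of Rdh10 was thus that of Aldh1a3, higher in both day 35 libraries and lower in KO than in WT on each day, though by less than 2-fold. Fabp5, a fatty acid binder that also carries retinoic acid, had 360, 301, 1015 and 1212 CPM, past 2-fold lower at day 35 in KO and in WT, where the log2 ratio was -2.01. The receptor gene Rxrg was lower at day 35 by -1.39 and -1.95, and the positional genes Hoxa5 and Hoxd4, which retinoic acid induces in embryos, by -1.01 and -2.38, and by -1.63 and -3.54. Of 12 genes known to be induced by retinoic acid, 11 could be compared over time. In KO 0 were higher and 2 lower, with a median log2 ratio of -0.49 against 0.14 over all genes, of which 21.3% passed 2-fold. In WT 1 was higher and 7 lower, with a median of -1.48 against -0.14, where 22.7% of all genes passed. In KO against WT at day 25 it was 0 higher and 3 lower of 12 (Hoxa5, Hoxb4 and Hoxb5), with a median of -0.30 against -0.04 and a share of 7.72% over all genes. At day 35 it was 2 higher (Hoxb4 and Hoxd4) and 1 lower of 11 (Cyp26a1, from 15 KO and 29 WT UMIs), with a median of 0.41 against 0.23 and a share of 13.3%. The other RAR and RXR genes, Rara, Rarg, Rxra and Rxrb, were under 2-fold in each of the 4 comparisons.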

How the data were processed

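Gene counts of UMIs per cell barcode for 4 libraries were used as the authors deposited them, 1 sparse matrix per library. Per the submitters' processing notes the tools included R 3.5.1 and Seurat 2.3.1 beside bcl2fastq and Cell Ranger 2.1.0, and mm10 and GRCm38 were named as builds, with no role given for any. No deposited column lacked a sample. Here barcodes with at least 500 genes and at most 10% UMIs of mt- genes were kept, and cells were gated by at least 3 detected markers of a class. No doublet caller was run: cells passing several gates were set apart, and an alternative left out the cells of highest UMI count at 0.8% per 1000 barcodes.

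UMIs were summed per library, or per class and library of at least 50 cells, and written as CPM. Ratios are given from 20 UMIs over the 2 libraries, with exact 95% binomial intervals, and 2-fold is the size used to name a change. Levels have exact 95% Poisson intervals. Intervals cover counting error only. Cells are not replicates and each group had 1 library, so no test was made. Interval coverage was checked on simulated Poisson counts, which is what the intervals assume. That check therefore does not cover UMIs clumped in single cells. The genes, lists, markers and comparisons were chosen with earlier results of these data known. All 9 genes are named. Other pathway genes are named by rule where they passed 2-fold with the same sign in both genotypes, or on both days; Hoxb4, Hoxb5 and Cyp26a1 were named after their values were seen. For each gene the 3 of most similar pattern are named, among genes with at least 200 UMIs. Promoter windows are from RefSeq, GRCm38.p6. Work was done in Python 3.11.15 with numpy 2.4.6, scipy 1.17.1 and pandas 2.3.3.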

Additional observations from a re-analysis of the deposited data

Results flagged for a closer look

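Some KO over WT log2 ratios had opposite signs on the 2 days. With 1 library per group the difference between the days was not tested. In whole libraries Aldh1a1 was at 0.47 at day 35 and -1.10 at day 25, Stra6 at 0.47 and -0.50, and Rarb at 0.24 and -0.28, where the median of all genes was 0.23 at day 35 and -0.04 at day 25. In fibroblast-like cells Aldh1a1 was at 0.94 at day 35 and -0.57 at day 25, and Stra6 at 0.52 and -0.52. In the joint otic class Aldh1a3 was at -0.89 at day 35 and 0.94 at day 25, the second from 69 KO and 61 WT cells with 41 of the 128 KO UMIs in 1 cell, and at -0.57 with a gate of 2 markers. In keratinocyte-like cells Stra6 was at -2.67 at day 35, from 6 KO and 15 WT UMIs, and 0.59 at day 25. In myogenic progenitor-like cells Rbp4 was at 1.63 at day 35, from 19 KO and 10 WT UMIs, and -0.49 at day 25. Their levels were 42.7, 13.8, 26.2 and 36.7 CPM in KO day 35, WT day 35, KO day 25 and WT day 25. Skeletal muscle-like cells had 10.7, 5.56, 24.9 and 27.8 CPM in the same order. In KO day 35 the intervals of these classes did not overlap (25.7 to 66.8 and 5.84 to 17.9).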

How the results depend on the processing

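No paired analysis was possible because each group had 1 library, and for the same reason no replicate could be left out. Under the alternatives that can move a ratio, 178 whole-library ratios stayed within their counting interval, 110 moved outside it and 0 turned a called sign; within classes it was 1088, 110 and 1. That 1 was Crabp2 in skeletal muscle-like cells of KO over time, at 0.99 with a gate of 2 markers. Some whole-library ratios under 2-fold did change sign. Without the cells of highest UMI count, Rbp4 in KO over WT at day 25 went from 0.15 to -0.34. Over time in KO, Rbp4 then went from -0.40 to 0.45. Crabp1 over time in WT went from -0.08 to 0.52 under the stricter filter. With the stricter filter 0 of 9 genes were past 2-fold over time in WT and 3 in KO; without adipocyte-gate cells 1 was past it in KO over WT at day 35. Within classes, the KO over WT count at day 35 was 7 with no filter on cells, 9 with the mean over cells, 1 with a minimum of 50 UMIs, 9 with no minimum, and 10 with cells of several classes put in the class with the most markers. At day 25 it was 5 with the stricter filter, 5 with a minimum of 50 UMIs and 22 with no minimum. Over time it was 4 in WT and 8 in KO with the stricter filter, 8 in WT with a gate of 4 markers, 23 in KO with no minimum, and 20 in WT and 23 in KO with cells of several classes assigned. The causes were not tested. The alternatives on the pluripotent and adipocyte gates and the joint otic class were chosen after seeing the data. Classes of few cells, above all in WT day 35, limit the depth behind each value.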

Other observations

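Ungated cells with at least 3 Crabp1 UMIs numbered 163 in KO day 35, 387 in WT day 35, 369 in KO day 25 and 379 in WT day 25. In KO day 35 they were led by Wfdc17, Mmp3, Csf3 and Ptx3, and in WT day 25 by Twist2, Spp1, Crispld2 and Nrn1. In fibroblast-like cells Rbp4 was found in 19.7%, 7.17%, 36.4% and 44.0% of cells with an Aldh1a2 UMI, against 38.6%, 30.5%, 47.8% and 52.2% of cells without one, in the order KO day 35, WT day 35, KO day 25 and WT day 25. The share was lower among cells with Aldh1a2 in each of the 4 libraries, which is a description with no test.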
